A study of Mus musculus with 12 samples.

Results

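The genes described here are 10 transcripts that mark mouse embryonic stem (ES) cells, namely the developmental pluripotency-associated genes Dppa2, Dppa3, Dppa4 and Dppa5, together with Fbxo15, Utf1, Tdgf1, Gdf3, Tcl1 and Nr0b1. Every probe whose annotated name is one of these symbols was taken, which gave 11 probes for the 10 genes, out of 41174 probes and 27670 names on the array. Dppa5, listed in the reference genes as Dppa5a, had 2 probes and each other gene had 1. RNA came from E14 cells, a mouse ES cell line, exposed for 72 hr to esiRNA at 0.33 ng/µl with a lipid transfection reagent. An esiRNA is a mixture of short interfering RNAs made by enzymatic digestion of long double-stranded RNA. One esiRNA targeted p400 (gene Ep400), an ATPase that remodels chromatin, and another targeted Tip60 (gene Kat5), the histone acetyltransferase that works in a complex with p400. The esiRNA of the control cells was directed at the reporter EGFP. For p400, 4 arrays of 1 slide held knockdown and EGFP RNA in opposite colours, with p400 RNA in Cy5 on replicates 1 and 3 and in Cy3 on replicates 2 and 4. For Tip60, 4 knockdown and 4 EGFP samples were each hybridised alone in 1 colour, over 2 slides that each held both groups. The labels name no other allele or agent in any group, and each sample came from 1 well. The study's design calls the replicates biological, and the labels do not say whether the EGFP RNA of both experiments came from the same wells.

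Genes of this kind are transcribed in the early embryo, in ES cells and in part in germ cells, and they are switched off when ES cells differentiate. Dppa2 and Dppa4 encode related chromatin proteins with a SAP DNA-binding domain that form a pair and help to activate genes of the cleavage-stage embryo, and they lie side by side in the genome. Dppa3, also called Stella, protects DNA methylation in the early embryo and marks primordial germ cells, and it lies in a cluster with Gdf3 and Nanog. The Tip60-p400 complex acetylates histones and exchanges histone variants at promoters, and its subunits were studied here for their role in gene expression of ES cells.

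The probe sequences behind the main contrasts are shown because each value rests on a single probe of 60 bases. The first pair is Dppa2 and Dppa4, whose responses differed although the genes are adjacent. The second pair is Dppa3 and Gdf3, again neighbours whose fitted changes differed, though in p400 knockdown each call was lost when some single arrays were left out. The last pair is both Dppa5 probes, which target one gene name but share no run of bases longer than 5. Sequences are given 5′ to 3′ as in the deposited files, with positions on mouse build mm7 as annotated there, and no letters are marked.
Dppa2 (chr16:48078749-48078808, plus strand): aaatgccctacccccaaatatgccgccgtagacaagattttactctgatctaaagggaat
Dppa4 (chr16:48053770-48053829, plus strand): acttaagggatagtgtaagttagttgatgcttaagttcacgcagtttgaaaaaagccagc
Dppa3 (chr6:122666937-122666996, plus strand): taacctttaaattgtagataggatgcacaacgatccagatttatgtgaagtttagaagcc
Gdf3 (chr6:122643573-122643632, minus strand): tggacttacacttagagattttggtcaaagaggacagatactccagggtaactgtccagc
Dppa5 (chr5:28571256-28571315, plus strand): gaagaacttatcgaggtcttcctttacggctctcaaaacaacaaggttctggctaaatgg
Dppa5 (chr9:78441271-78441330, minus strand): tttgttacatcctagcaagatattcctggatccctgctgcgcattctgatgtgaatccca
The Dppa2 and Dppa4 probes start 24979 bases apart on the same strand, and the Gdf3 and Dppa3 probes start 23364 bases apart on opposite strands. The annotation in the files places the first Dppa5 probe on chromosome 5, whereas the reference genes (RefSeq, assembly GRCm38.p6) place Dppa5a on chromosome 9, together with the Dppa5b and Dppa5c pseudogenes. Pseudogenes are also listed for Dppa3 and Tdgf1, and 5 related coding genes, Tcl1b1 to Tcl1b5, are listed beside Tcl1 on chromosome 12. Signal from such copies could enter those probes, and this was not tested.

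As facts of the whole series, between 26067 and 29023 of the 41174 probes were well above background in a single channel of a p400 array, and between 23621 and 28373 on the arrays of Tip60 replicates 1, 2 and 4 and EGFP. Tip60 replicate 3 had 20906. That array was left out of the Tip60 fit, as the submitters state they did because of its intensity profile, and its values are given separately. The number of arrays limits the precision. Knockdown was measurable at both targets. Kat5 had a log2 level of -0.19, -0.30 and -0.27 on the Tip60 arrays, against 1.16, 1.15, 1.22 and 1.39 on the EGFP arrays, and Ep400 had log2 ratios of p400 over EGFP of -0.65, -0.77, -0.24 and -0.67. The other 2 Ep400 probes differed from each other. The first had ratios of 0.06, -1.12, -0.57 and -1.24, below 0 on all arrays but replicate 1. The second had ratios of 0.45, 0.25, 0.25 and -0.05, above 0 on all arrays but replicate 4, and so did not show a fall. The part of the transcript each probe reads was not examined. Kat5 was also lower in p400 knockdown (log2 fold change -0.43 ± 0.08 SE, adjusted p = 0.0109, limma). The ES cell factors Pou5f1, Sox2, Nanog, Klf4 and Zfp42 were well above background on every array used in both fits, as were all 11 member probes, none of which was saturated.

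In p400 knockdown the members did not move as one group. Dppa2 and Fbxo15 rose most, Dppa3 rose by a smaller amount, Dppa5, Gdf3 and Tcl1 fell slightly, and Dppa4, Utf1, Tdgf1 and Nr0b1 did not pass the test. In all, 6 of 10 members passed an adjusted p of 0.05 (limma, Benjamini-Hochberg over 18691 genes), 3 higher and 3 lower, beside 35.2% of all genes tested, of which 20.1% were higher and 15.0% lower. The median log2 fold change was -0.06 over the members and 0.01 over all genes tested. Where loess was replaced by centring each array on its median, 2881 genes were higher and 6784 lower, against 3765 higher and 2811 lower in the fit used here. That scaling moved the median of all genes to -0.11. The deposited log ratios gave 3893 higher and 4282 lower.

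**Figure D1:**
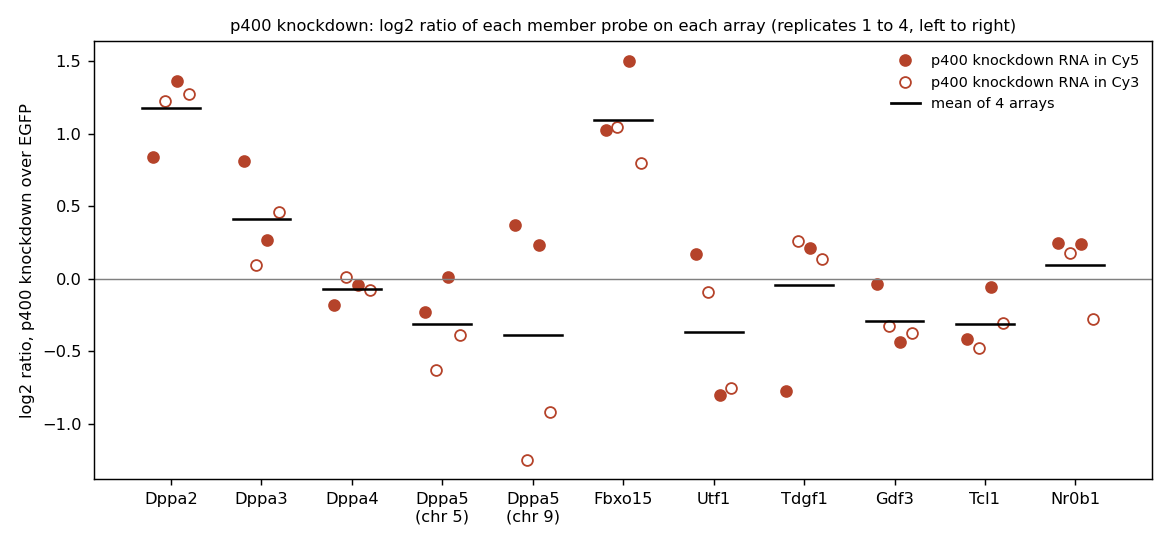
Log2 ratio of p400 knockdown over EGFP (vertical axis) for each of the 11 member probes (horizontal axis) on 4 two-colour arrays, drawn left to right as replicates 1 to 4. Filled points have the p400 RNA in Cy5, open points in Cy3, and bars are means. The points of Dppa2 lie between 0.84 and 1.36 and those of Fbxo15 between 0.80 and 1.50, those of Dppa4 lie near 0, and the Dppa5 probe on chromosome 9 splits by dye.

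Dppa2 had log2 ratios of 0.84, 1.23, 1.36 and 1.28 on p400 replicates 1 to 4. All 4 arrays were above 0, with replicate 1 the lowest. The rise was 2.26-fold (log2 fold change 1.18 ± 0.10 SE, adjusted p = 0.00131, limma), and it passed under all 13 alternatives tried, at log2 fold changes between 0.85 and 1.31. Its neighbour and protein partner Dppa4 had log2 ratios of -0.18, 0.01, -0.04 and -0.07. These values were the tightest of any member, with an SD of 0.08, and lay on both sides of 0. The fitted change was -0.07, with a 95% interval from -0.23 to 0.09 (adjusted p = 0.451, limma). With arrays centred on their medians, Dppa4 passed as lower at -0.40 (adjusted p = 0.00497, limma). The difference between Dppa2 and Dppa4 ratios within an array was 1.25 ± 0.17 (SD, n = 4), between 1.02 and 1.41, and was positive on 4 of 4 arrays. The exact two-sided sign-flip test over arrays gave p = 0.125, the smallest value that 4 arrays allow. The neighbour pairs were set side by side with the member values known, so their p values, here and below, lend the contrasts no support.

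Dppa3 had log2 ratios of 0.81, 0.10, 0.27 and 0.46. All were above 0, but they ranged widely and replicate 1 was the highest. The 1.33-fold rise (log2 fold change 0.41 ± 0.11 SE) passed with an adjusted p of 0.0357 (limma). It no longer passed without replicate 1 (0.27, adjusted p = 0.103), replicate 2 (0.50, adjusted p = 0.0513) or replicate 4 (0.32, adjusted p = 0.135), nor under 4 other settings, among them arrays centred on their medians (0.12, adjusted p = 0.363). Gdf3, which encodes a ligand of the TGF-beta family and lies next to Dppa3, had log2 ratios of -0.04, -0.33, -0.43 and -0.37. All were below 0, with replicate 1 close to it. The fall was 1.23-fold (log2 fold change -0.29 ± 0.09 SE, adjusted p = 0.0414, limma). It did not pass without replicate 2 (-0.30, adjusted p = 0.133), replicate 3 (-0.19, adjusted p = 0.124) or replicate 4 (-0.28, adjusted p = 0.133). With arrays centred on their medians it was -0.58. The Dppa3 ratio exceeded the Gdf3 ratio on 4 of 4 arrays, by 0.70 ± 0.20 (SD, n = 4), with differences between 0.42 and 0.85 and the same smallest exact p of 0.125.

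Fbxo15 encodes the substrate-binding F-box subunit of a ubiquitin ligase and is a target of Oct4 and Sox2, and it is not needed for ES cells to grow. Its log2 ratios were 1.03, 1.04, 1.50 and 0.80. All 4 arrays were well above 0, with replicate 3 the highest. The rise was 2.13-fold (log2 fold change 1.09 ± 0.10 SE, adjusted p = 0.00154, limma), and it passed under all 13 alternatives, between 0.73 and 1.21. Its probe was bright enough that 7 of 8 channels held values scaled up from a second scan at low gain.

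Dppa5, also called Esg1, encodes an RNA-binding protein with a KH domain. Its probe on chromosome 9, the brighter one, had log2 ratios of 0.37, -1.25, 0.23 and -0.92. The arrays with p400 RNA in Cy5 were above 0, with a mean of 0.30, and those with p400 RNA in Cy3 were below 0, with a mean of -1.08, so the split followed the dye. The fit with a dye term gave -0.39 ± 0.08 SE (adjusted p = 0.0146, limma), and without that term the adjusted p was 0.314. The probe placed on chromosome 5 had log2 ratios of -0.23, -0.63, 0.02 and -0.39. Here 3 of 4 arrays were below 0, the Cy3 arrays again lower than the Cy5 arrays, and the fitted change was -0.31 ± 0.08 SE (adjusted p = 0.0288, limma, each probe by itself). Both probes thus gave a fall of similar size, of which the larger was 1.31-fold. All 8 channels of both probes were scaled up from the scan at low gain, and the part of scanner range in the dye split was not tested. Without replicate 2 the Dppa5 change was -0.31 (adjusted p = 0.0844), and without replicate 3 it was -0.36 (adjusted p = 0.0534). With arrays centred on their medians it was -0.75 (adjusted p = 0.000729).

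Tdgf1, or Cripto, encodes the cell-surface coreceptor through which Nodal and related ligands signal. Its log2 ratios were -0.78, 0.26, 0.22 and 0.13. Replicate 1 stood apart below 0 and the other 3 arrays agreed above 0. The fitted change was -0.04, with a 95% interval from -0.42 to 0.34 (adjusted p = 0.864, limma), without replicate 1 it was 0.21 (adjusted p = 0.110), and with arrays centred on their medians it was -0.40 (adjusted p = 0.0581). Tcl1 encodes a coactivator of the kinase Akt. It had log2 ratios of -0.41, -0.47, -0.06 and -0.31, all below 0, with replicate 3 near 0. The fall was 1.24-fold (log2 fold change -0.31 ± 0.08 SE, adjusted p = 0.0333, limma), and it did not pass without replicate 1 (-0.22, adjusted p = 0.0987), replicate 2 (-0.27, adjusted p = 0.161) or replicate 4 (-0.35, adjusted p = 0.0680). With arrays centred on their medians it was -0.62.

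The last members are transcriptional regulators. Utf1, a chromatin-bound factor of undifferentiated cells, had log2 ratios of 0.17, -0.09, -0.80 and -0.75. Replicates 3 and 4 were clearly below 0 and the other arrays were near it. The change of -0.37 had a 95% interval from -0.81 to 0.07 (adjusted p = 0.163, limma), and it passed without replicate 1 (-0.61, adjusted p = 0.0339) and with arrays centred on their medians (-0.64, adjusted p = 0.0143). Nr0b1, or Dax1, a nuclear receptor without a known ligand that represses transcription, had log2 ratios of 0.24, 0.18, 0.24 and -0.28. Replicate 4 alone was below 0. The change was 0.10, with a 95% interval from -0.12 to 0.32 (adjusted p = 0.443, limma), and it turned to -0.23 with arrays centred on their medians. Over all members, 5 of 10 had the same sign on all 4 arrays by the probe that represents the gene, beside 53.0% of genes tested.

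In Tip60 knockdown the member changes that passed were all upward. Dppa2, Dppa3, Fbxo15 and Tdgf1 rose by 1.30-fold to 1.56-fold, and no member passed as lower. These 4 of 10 members passed an adjusted p of 0.05 (limma, over 16949 genes), beside 25.6% of all genes tested, of which 15.3% were higher and 10.3% lower. The median log2 fold change was -0.02 over the members and 0.01 over all genes tested. The split of all calls was 2586 higher and 1746 lower, and it changed to 2097 and 2346 after quantile normalization, to 1704 and 1683 with the authors' processed matrix, and to 2279 and 2237 with Tip60 replicate 3 included. On single-colour arrays a level is the log2 processed signal minus the array's 75th percentile, so levels of different probes are not set against each other. In bulk RNA of this kind, fewer cells that express a gene and less of its RNA per cell cannot be told apart.

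**Figure D2:**
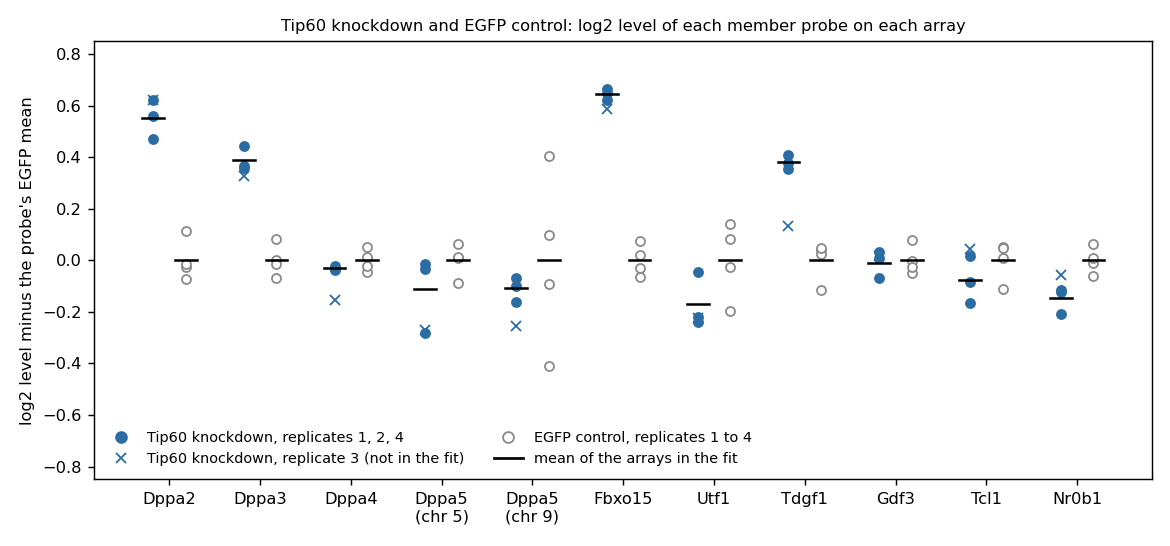
Log2 level minus the probe's EGFP mean (vertical axis) for each member probe (horizontal axis). Filled points are Tip60 replicates 1, 2 and 4, crosses are Tip60 replicate 3, open points are EGFP replicates 1 to 4, and bars are means. The Tip60 points of Dppa2, Dppa3, Fbxo15 and Tdgf1 lie above all EGFP points, and those of Nr0b1 lie below them in the arrays of the fit.

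Dppa2 had log2 levels of 4.02, 3.87 and 3.96 on Tip60 replicates 1, 2 and 4, against 3.37, 3.52, 3.39 and 3.33 on EGFP replicates 1 to 4. The groups did not overlap. The rise was 1.47-fold (log2 fold change 0.55 ± 0.07 SE, adjusted p = 0.00110, limma). Dppa4 had log2 levels of 3.16, 3.16 and 3.17 on the Tip60 arrays, against 3.21, 3.15, 3.17 and 3.25 on the EGFP arrays. The groups overlapped within a narrow band, and the change was -0.03, with a 95% interval from -0.14 to 0.08 (adjusted p = 0.682, limma). The change of Dppa2 exceeded that of Dppa4 by 0.58 on the log2 scale. The exact two-sided permutation test over the 7 arrays gave p = 0.0286, the smallest value this design allows. As above, the pair was compared with its values known, so this p value lends the contrast no support.

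Dppa3 had log2 levels of 1.30, 1.31 and 1.38 on the Tip60 arrays, against 0.94, 1.02, 0.93 and 0.87 on the EGFP arrays. Every Tip60 array was above every EGFP array. The rise was 1.31-fold (log2 fold change 0.39 ± 0.06 SE, adjusted p = 0.00251, limma). Gdf3 had log2 levels of 2.09, 1.99 and 2.07 on the Tip60 arrays, against 2.01, 2.05, 2.03 and 2.14 on the EGFP arrays. The groups were interleaved, and the change was -0.01, with a 95% interval from -0.14 to 0.12 (adjusted p = 0.929, limma). The change of Dppa3 exceeded that of Gdf3 by 0.40, with the same smallest exact p of 0.0286.

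Fbxo15 had log2 levels of 6.08, 6.05 and 6.09 on the Tip60 arrays, against 5.40, 5.51, 5.37 and 5.45 on the EGFP arrays. The gap between the groups was far wider than the spread within either. The rise was 1.56-fold (log2 fold change 0.65 ± 0.05 SE, adjusted p = 0.000187, limma), and it was the member change that passed under all 20 alternatives, between 0.60 and 0.70. Tdgf1 had log2 levels of 5.08, 5.13 and 5.10 on the Tip60 arrays, against 4.76, 4.75, 4.61 and 4.77 on the EGFP arrays. The groups did not overlap, and EGFP replicate 3 was the lowest array. The rise was 1.30-fold (log2 fold change 0.38 ± 0.06 SE, adjusted p = 0.00328, limma).

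Each slide held both groups, so these rises were also taken within a slide. Within slide 2 (Tip60 replicates 2 and 4, EGFP replicates 1 and 3) the log2 fold changes were 0.54 for Dppa2, 0.41 for Dppa3 and 0.43 for Tdgf1, with adjusted p of 0.0248, 0.0416 and 0.0542 (limma). Within slide 3, which kept a single Tip60 array whose spread is assumed to be that of the EGFP arrays, they were 0.60, 0.35 and 0.32, with adjusted p of 0.0572, 0.163 and 0.156. The directions were thus the same on both slides, while Tdgf1 did not pass on either and Dppa2 and Dppa3 passed on slide 2. Tip60 replicate 3, not used in the fit, had levels of 4.02 for Dppa2, 1.27 for Dppa3, 6.02 for Fbxo15 and 4.86 for Tdgf1, each above all 4 EGFP arrays. For members that did not pass, some of its levels lay below all 4 EGFP arrays. These were 3.04 for Dppa4, 6.52 for the Dppa5 probe on chromosome 5 and 2.26 for Utf1. Within the EGFP range were 8.31 for the Dppa5 probe on chromosome 9, 2.08 for Gdf3 and 2.42 for Tcl1.

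Nr0b1 had log2 levels of 3.97, 3.88 and 3.97 on the Tip60 arrays, against 4.03, 4.15, 4.08 and 4.10 on the EGFP arrays. In the fit its 3 Tip60 arrays were below its EGFP arrays by a small margin, whereas Tip60 replicate 3, at 4.03, was not below EGFP replicate 1. The change of -0.15 ± 0.05 SE did not pass (adjusted p = 0.0890, limma). In all, 5 of 10 members had groups that did not overlap by the representing probe, beside 36.5% of genes tested. Utf1 had log2 levels of 2.26, 2.43 and 2.24 on the Tip60 arrays, against 2.56, 2.28, 2.62 and 2.45 on the EGFP arrays, and the groups overlapped. Its change was -0.17, with a 95% interval from -0.39 to 0.06 (adjusted p = 0.247, limma). Tcl1 had log2 levels of 2.21, 2.39 and 2.29 on the Tip60 arrays, against 2.38, 2.43, 2.42 and 2.26 on the EGFP arrays. These groups overlapped too, and the change was -0.08, with a 95% interval from -0.24 to 0.08 (adjusted p = 0.454, limma).

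For Dppa5, the probe on chromosome 9 had log2 levels of 8.41, 8.50 and 8.47 on the Tip60 arrays, against 8.16, 8.67, 8.47 and 8.97 on the EGFP arrays. The EGFP arrays enclosed the Tip60 arrays on both sides, and the change was -0.11, with a 95% interval from -0.52 to 0.30 (adjusted p = 0.697, limma). The probe placed on chromosome 5 had levels of 6.51, 6.76 and 6.78 on the Tip60 arrays, against 6.70, 6.80, 6.85 and 6.80 on the EGFP arrays. Both probes thus gave the same small change of -0.11, the second with a narrower 95% interval from -0.30 to 0.08.

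Side by side, the same 3 members, Dppa2, Dppa3 and Fbxo15, were called higher in both knockdowns, beside 10.6% of the 16424 genes tested in both. The log2 changes were 1.18 in p400 knockdown and 0.55 in Tip60 knockdown for Dppa2, 1.09 and 0.65 for Fbxo15, and 0.41 and 0.39 for Dppa3. The p400 and Tip60 effects were compared by the difference of the fitted changes over the root of their summed squared SE, with the smaller degrees of freedom. Dppa2 was the member that passed, with a difference of 0.63 ± 0.12 SE (95% interval 0.34 to 0.91, adjusted p = 0.0473), beside 4.16% of genes tested, 2.22% with the larger value in p400 knockdown and 1.94% with the larger value in Tip60 knockdown. That call was lost in 13 of 15 alternatives, among them the omission of any 1 array, while the difference stayed between 0.50 and 0.76. Fbxo15 differed by 0.45 ± 0.11 SE (adjusted p = 0.0787). For Dppa3 the difference was 0.02, with a 95% interval from -0.29 to 0.33 (adjusted p = 0.937). Tdgf1, called in Tip60 knockdown alone, had a difference of -0.42 ± 0.17 SE (adjusted p = 0.188), so a difference between the knockdowns was not established for it. The other 6 members had adjusted p between 0.157 and 0.802 in this test. The platforms differed too, since p400 was read as two-colour ratios and Tip60 as single-colour levels, and knockdown and platform cannot be told apart in these differences.

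**Figure D3:**
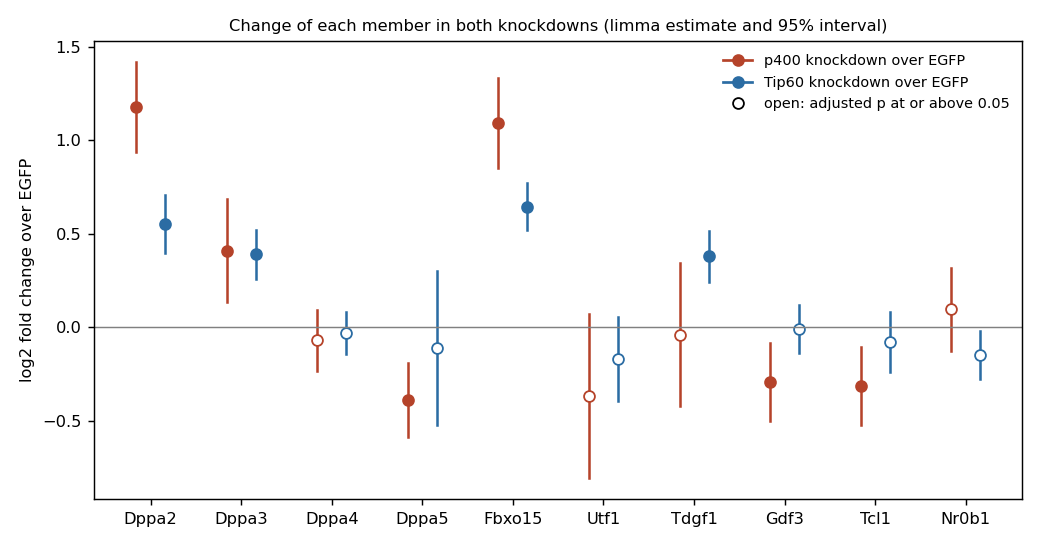
Log2 fold change over EGFP (vertical axis) of each member (horizontal axis) in p400 knockdown and Tip60 knockdown, as limma estimates with 95% intervals. Filled points passed an adjusted p of 0.05. Dppa2, Dppa3 and Fbxo15 are filled in both, at 1.18, 0.41 and 1.09 in p400 knockdown and 0.55, 0.39 and 0.65 in Tip60 knockdown.

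The genes next to the 2 member pairs were looked up in the reference order after the member values had been seen. Dppa4 and Dppa2 are followed by Morc1, a gene of the male germ line, whose log2 change was -0.18 in p400 knockdown (adjusted p = 0.0888) and 0.17 in Tip60 knockdown (adjusted p = 0.184, limma). On the other side Nectin3, an adhesion molecule, was at -0.13 and -0.22, with adjusted p of 0.159 and 0.0523. Of the genes tested in this stretch, Nectin3, Dppa4, Dppa2 and Morc1, only Dppa2 passed in both knockdowns. Around Gdf3 and Dppa3, Nanog was at 0.11 and 0.00 (adjusted p = 0.576 and 0.983), the glucose transporter gene Slc2a3 at -0.35 and -0.09 (adjusted p = 0.0176 and 0.369), and Apobec1, which encodes an RNA-editing cytidine deaminase, at -0.98 and -0.73 (adjusted p = 0.00136 and 0.000467, limma). Apobec1 fell in both knockdowns, whereas Dppa3 in the same cluster rose in both.

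The pattern most like that of Dppa2 was sought by Euclidean distance over 11 values, the 4 p400 ratios and the 7 single-colour levels minus the gene's EGFP mean, among 16268 genes. The nearest genes were Phf11a at a distance of 0.36, Dock9 at 0.38 and Ino80 at 0.41. Ino80 encodes the ATPase of another chromatin remodeller and Dock9 an activator of the GTPase Cdc42. Among the members Fbxo15 was the nearest, at rank 22 (distance 0.60), followed by Dppa3 at rank 1595, and Dppa4 stood at rank 8765. For Dppa4 the nearest genes were Tmem59 at 0.12, Zfp276 at 0.14 and Trappc2 at 0.16, and Dppa2 was the most distant member, at rank 15567. These ranks describe the same arrays that gave the changes above.

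Among 32 other genes associated with ES cells, 28 were on the array and tested. In p400 knockdown 7 were higher and 7 lower, with a median log2 change of 0.01, beside 20.1% higher and 15.0% lower of all genes tested. This list, like the members and like all genes tested, thus split between both directions. The largest rises were those of the zinc finger gene Zfp296 (1.28 ± 0.09 SE, adjusted p = 0.000836), the telomere and replication-timing factor Rif1 (1.12 ± 0.21, adjusted p = 0.00989) and Dnmt3l (0.83 ± 0.07, adjusted p = 0.00126, limma), a cofactor of DNA methyltransferases. The others that rose were Phc1, Klf2, Jarid2 and Dnmt3b. The largest falls were those of the egg protein gene Ooep (-0.86 ± 0.07, adjusted p = 0.00114), the transcription factor gene Tfcp2l1 (-0.53 ± 0.07, adjusted p = 0.00437) and Lefty1 (-0.51 ± 0.07, adjusted p = 0.00377, limma), an inhibitor of Nodal signalling. For Tfcp2l1 the mean over its probes gave -0.21 (adjusted p = 0.0909). With arrays centred on their medians Dnmt3l was at 0.49, Tfcp2l1 at -0.85 and Lefty1 at -0.83. Slc7a3, Esrrb, Lefty2 and Sox2 also fell. Leaving out any 1 of the 4 arrays left 3 genes lower, which were Ooep, Tfcp2l1 and Lefty1, and 6 to 9 higher. Centring arrays on their medians gave 15 lower.

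In Tip60 knockdown 1 of the 28 genes rose and 5 fell, with a median of -0.01, beside 15.3% higher and 10.3% lower of all genes tested. Zfp296 rose again (0.53 ± 0.05 SE, adjusted p = 0.000360). Ooep (-0.51 ± 0.07, adjusted p = 0.00282), the reprogramming factor gene Klf4 (-0.48 ± 0.06, adjusted p = 0.00155) and Lefty1 (-0.22 ± 0.06, adjusted p = 0.0343, limma) fell most, with Dnmt3b and Sox2. Lefty1 lost its call in 11 of 20 alternatives, among them those without Tip60 replicates 1 or 4 or EGFP replicates 1, 3 or 4, with adjusted p between 0.0610 and 0.113. Leaving out 1 of the 7 arrays left 2 to 4 genes lower. Pou5f1, which encodes Oct4, was at 0.04 in p400 knockdown (adjusted p = 0.818) and 0.06 in Tip60 knockdown (adjusted p = 0.505, limma). The rises of Dppa2, Dppa3 and Fbxo15 stood beside Pou5f1 and Nanog transcripts that did not pass in either knockdown. Other ES cell factors were called, some of them close to the threshold. Sox2 was lower in p400 knockdown (-0.21, adjusted p = 0.0479) and in Tip60 knockdown (-0.21, adjusted p = 0.0197, limma). In p400 knockdown Klf2 was higher and Esrrb and Tfcp2l1 were lower, and Klf4 was lower in Tip60 knockdown. The p400 calls of Sox2 and Esrrb were lost whichever 1 of the 4 arrays was left out.

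**Figure D4:**
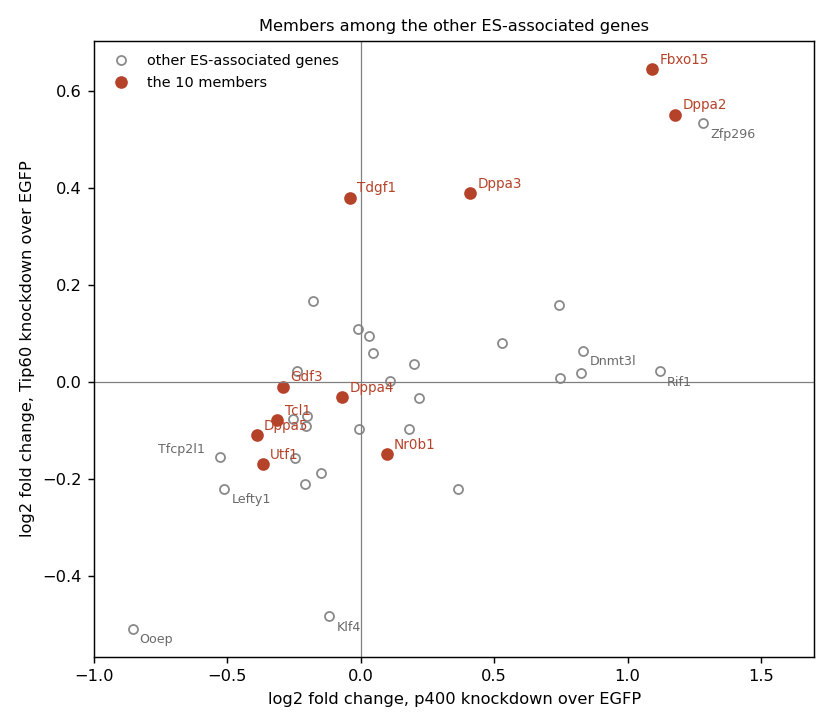
Log2 fold change in p400 knockdown (horizontal axis) and in Tip60 knockdown (vertical axis) for the 10 members (filled) and the other genes associated with ES cells (open), 1 point a gene. Fbxo15, Dppa2 and Zfp296 lie at the upper right, Ooep at the lower left, and Tdgf1 above 0 on the vertical axis with a value of -0.04 on the horizontal axis.

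Genes of the 2-cell embryo and the germ line were counted because Dppa2 and Dppa4 act on the first and Dppa3 marks the second. Of all genes tested, 20.1% were higher and 15.0% lower in p400 knockdown, and 15.3% and 10.3% in Tip60 knockdown. Of 8 tested 2-cell genes, 7 rose and 0 fell in each knockdown, with median log2 changes of 3.94 in p400 and 2.93 in Tip60 knockdown. The second median was 2.56 with Tdpoz1, which did not rise above background on any EGFP array, at its bound. In the p400 experiment Tdpoz1 was above background in 4 p400 channels and 2 EGFP channels. It was thus tested through its knockdown arrays in each experiment. Zfp352, a zinc finger gene of this stage, rose by 4.52 ± 0.17 SE in p400 knockdown (adjusted p = 0.000220) and by 3.53 ± 0.10 SE in Tip60 knockdown (adjusted p = 1.34e-06, limma). Of the germ line genes, 12 of 18 rose and 2 fell in p400 knockdown, and 7 of 17 rose and 2 fell in Tip60 knockdown, with medians of 0.42 and 0.17. Centring p400 arrays on their medians gave 9 higher and 5 lower. Asz1, counted as a rise in p400 knockdown, was likewise above background in 4 p400 channels and 2 EGFP channels. Dazl, an RNA-binding protein of germ cells, rose by 2.07 ± 0.09 SE in p400 knockdown (adjusted p = 0.000232) and by 1.30 ± 0.07 SE in Tip60 knockdown (adjusted p = 3.14e-05, limma). The changes of Zfp352 and Dazl were larger than that of any member in the same knockdown, whereas the germ line medians were below the changes of Dppa2 and Fbxo15.

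Markers of other cell types were counted in the same way. Beside them, 20.1% of all genes tested were higher and 15.0% lower in p400 knockdown, and 15.3% and 10.3% in Tip60 knockdown. Endoderm markers rose in 7 of 9 tested in p400 knockdown and in 8 of 8 in Tip60 knockdown, and none fell. With signal required on every array of the fit, 4 were higher in p400 knockdown and 5 in Tip60 knockdown. Afp, counted above, was at background in all EGFP RNA and so was tested through its knockdown arrays. Without 1 array at a time these were 5 to 7 genes in each knockdown, the lowest without p400 replicate 2 and without Tip60 replicates 1 or 4 or EGFP replicate 2. Their summed level on a p400 array was 1.38 to 1.83 times that of the EGFP channel, and in units of the array's 75th percentile it was 1.32 to 1.45 on the Tip60 arrays, against 0.88 to 0.92 on the EGFP arrays. Ttr was likewise at background in EGFP RNA. Cxcr4, counted in Tip60 knockdown, was above background on 3 Tip60 arrays and 1 EGFP array, so its knockdown arrays carried it into the test. Trophectoderm markers rose in 7 and fell in 1 of 10 in p400 knockdown (summed level 1.39 to 1.60 times that of EGFP, and 4 higher without p400 replicate 2), and rose in 4 and fell in 1 of 10 in Tip60 knockdown (86.7 to 103 on the Tip60 arrays, against 80.6 to 91.6 on the EGFP arrays). Mesoderm markers rose in 3 and fell in 1 of 9 in p400 knockdown (1.18 to 1.97 times), and rose in 4 of 8 in Tip60 knockdown (1.46 to 1.56, against 0.87 to 0.97), with Mixl1 not well above background in EGFP RNA. Evx1, counted in Tip60 knockdown, was above background on 3 Tip60 arrays and 1 EGFP array. Cdx2, a trophectoderm marker counted in p400 knockdown, was above background in 4 p400 channels and 2 EGFP channels. Each was thus tested through its knockdown arrays. Hand1 and Eomes are on the trophectoderm and mesoderm lists. Hand1 counts as a rise on each list in p400 knockdown, and Eomes in Tip60 knockdown.

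Neural markers rose in 3 and fell in 1 of 8 in p400 knockdown (1.07 to 1.34 times) and rose in 1 and fell in 2 of 7 in Tip60 knockdown (11.6 to 12.4, against 11.7 to 11.9). In p400 knockdown 1 was higher without replicates 2 or 3, 2 were lower without replicate 1 or with arrays centred on their medians, and 0 were lower without replicates 2 or 4. Pax3 stayed at background in the EGFP RNA of both experiments, as did Zic1 in the p400 experiment and Neurog2 in the Tip60 experiment. Feeder fibroblast markers rose in 5 and fell in 2 of 9 in p400 knockdown (0.77 to 0.97 times) and rose in 2 and fell in 1 of 9 in Tip60 knockdown (36.1 to 39.1, against 34.6 to 40.8), with Dcn and Lum not well above background in EGFP RNA. Without p400 replicate 4, 1 feeder marker was lower. In Tip60 knockdown 1 was higher and 0 lower without Tip60 replicate 4, and 2 were lower without EGFP replicate 3. Among 10 tested housekeeping genes, 3 rose and 1 fell in p400 knockdown, and 0 passed in Tip60 knockdown, where 0 also had an unadjusted p under 0.05 (limma). The p400 count became 0 higher and 5 lower with arrays centred on their medians, and 1 higher without replicate 2. Of all genes tested, 35.2% passed in p400 knockdown and 25.6% in Tip60 knockdown, and no list count was tested against these shares. The part of these other cell types in the member changes was not tested.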

How the data were processed

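The arrays were Agilent mouse arrays, design 014868. Per the file headers, Feature Extraction 9.5.1.1 gave mean and background intensity, a processed signal and probe positions (mm7) for each spot. The deposited LogRatio of two-colour arrays is a log10 ratio of red over green. The deposited series matrix has log2 values, with a normalization that is not given in the sources used here: its p400 columns have medians of 0 to 0.01 and correlate with LogRatio at 0.816, -0.815, 0.823 and -0.797 on replicates 1 to 4, following the dyes in the labels, and its single-colour columns have medians of 7.26 to 7.27 and correlate with log2 mean signal at 0.999 to 1.00. In the file of p400 replicate 4, 3 lines that each held 2 joined rows were split.

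In R 4.3.3 with limma 3.58.1, p400 arrays were corrected with normexp (offset 50) and loess (control spots at weight 0) and fitted with a dye term. From single-colour log2 processed signals the 75th percentile of the array was subtracted. Tip60 replicates 1, 2 and 4 were then fitted against EGFP replicates 1 to 4 (lmFit, eBayes). The 1639 control spots per array and outlier spots were left out. Testing a probe required signal well above background on 3 or more arrays for one of the RNAs, and a gene took its brightest tested probe. A gene at background in EGFP RNA could thus be tested only through its knockdown arrays, which favours rises among such genes. Likewise, a gene at background in knockdown RNA could be tested only through its EGFP arrays. Probes were named by accession (22951), symbol (6659) or synonym (3109) through the reference table, and otherwise (8455) as in the file. P values are two-sided, with Benjamini-Hochberg adjustment across all tested genes and a threshold of 0.05. The steps were tested on simulated data.

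Every probe of each member was named, with the 3 largest rises and falls among the other ES-associated genes, up to 2 genes of the 2-cell and germ line lists, and the 3 nearest genes in pattern. The members and lists were chosen with earlier results of these data known. The deviations of samples with the same replicate number had r of -0.286, -0.376 and -0.120 for numbers 1, 2 and 4. The Tip60 and EGFP samples of each number lay on different slides, so these r values cannot show whether the samples were paired. The labels name no pairing, and the main fit did not use the numbers as pairs. A fit with the replicate number as a block is among the alternatives, and it gave fewer calls. Alternatives changed background correction, normalization, probe filter, probe choice, slide, replicates and source of values.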

Additional observations from a re-analysis of the deposited data

Results flagged for a closer look

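In Tdgf1, p400 replicate 1 stood apart from the other 3 arrays, with a log2 ratio of -0.78 where the others were above 0, and EGFP replicate 3 stood apart from the other EGFP arrays, with a log2 level of 4.61. In Nr0b1, p400 replicate 4 stood apart, at -0.28. Each was farther from the nearest other value than Dixon's 95% limit allows, among 22 groups of 4 values checked, and chance gives about 1 such value in 20 groups. The p400 and Tip60 effects on Dppa2 differed by 0.63 on the log2 scale, the larger rise being in p400 knockdown. Tip60 replicate 3, which was not in the fit, had log2 levels of 4.02 for Dppa2, 1.27 for Dppa3, 6.02 for Fbxo15 and 4.86 for Tdgf1, each above every EGFP array.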

How the results depend on the processing

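Over 13 alternatives of the p400 fit, Dppa2 and Fbxo15 kept their calls, and over 20 alternatives of the Tip60 fit Fbxo15 did. No called change of a member turned its direction. Leaving out 1 array gave 3134 to 5748 genes called in p400 knockdown, 3146 to 3696 in Tip60 knockdown and 0 to 630 for the difference, the lowest in p400 knockdown without replicate 2. The difference gave 106, 441 and 0 genes without p400 replicates 1, 2 and 3 (3589 at an unadjusted p under 0.05 without replicate 3) and 253 and 407 without Tip60 replicates 1 and 4. Leaving out 1 array left 2 to 5 members in p400 knockdown (2 without replicate 2 and 3 without replicate 4), 4 in Tip60 knockdown and 0 for the difference. Scaling arrays to a common spread left 3 members in p400 knockdown. In Tip60 knockdown, slide 2 alone gave 1865 genes and slide 3 alone 1877, slide 3 with 1 member called, Fbxo15, and fewer arrays enter either fit. For the difference, Welch-Satterthwaite degrees of freedom gave 2416 genes and 2 members, the authors' processed matrix 1462 genes, and the deposited log ratios 0 members. With the replicate number as a block, which lets EGFP replicate 3 drop out, Tip60 knockdown gave 1864 genes and 2 members, and the difference 0 genes (3278 at an unadjusted p under 0.05) and 0 members. Apart from dropped arrays, the cause of these shifts was not tested. The number of arrays and the brightness of Dppa5, Fbxo15 and Tdgf1, read at low scanner gain, limit precision.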
